A study of Mus musculus with 17 samples.

Results

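The genes described here are 10 genes of the ATF4 branch of the integrated stress response and of amino acid supply: Atf4, Ddit3, Atf5, Trib3, Chac1, Sesn2, Ddit4, Asns, Psat1 and Phgdh. They were taken by gene name from the deposited count tables, in which they are 10 of 54532 genes. All 10 passed the low-count filter in both sets of samples, among 13357 tested genes in a dendritic cell line and 14006 in white blood cells from tumours. Ddit3 also has a second identifier, ENSMUSG00000116429, listed at 0 in all 17 samples, so the values of Ddit3 are those of ENSMUSG00000025408.

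The series sequenced RNA from 17 mouse samples to learn what versikine, a protease-made fragment of the matrix proteoglycan versican, does to immune cells around tumours. In MutuDC, a mouse conventional dendritic cell line, the groups were Vkine with LPS (n = 3), EV with LPS (n = 3), Vkine (n = 3) and EV (n = 2). In tumor CD45 samples, cells that carry the common leukocyte surface protein CD45, they were Vkine (n = 3) and EV (n = 3). Vkine is the label for versikine, EV is the usual abbreviation of empty vector, and LPS (lipopolysaccharide) is a component of bacterial outer membranes that activates dendritic cells through the receptor TLR4. How Vkine was given, the dose and duration of LPS, and whether the MutuDC arms were clones or the replicates separate cultures or animals are not stated in the labels. The p-values therefore reflect only how far these particular samples differ. The CD45 samples have tumor in their sample type and bone marrow in their source field.

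Cells that meet amino acid shortage, unfolded proteins in the endoplasmic reticulum, double-stranded RNA or loss of haem phosphorylate the translation factor eIF2, which slows most protein synthesis. The mRNA of the transcription factor ATF4 is then translated more, so ATF4 protein can change without its mRNA. ATF4 pairs with C/EBP and other ATF proteins on response elements of genes for amino acid synthesis, uptake and tRNA charging, and of stress genes such as Ddit3, Trib3 and Chac1. Dendritic cells are known to use the sensors of this response while they secrete cytokines and present antigen.

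Total counts were 13814620 to 21263321 per library. The mitochondrial share of counts was 0.936% to 1.03% in Vkine with LPS, 1.73% to 1.96% in EV with LPS, 1.72% to 1.86% in Vkine and 1.36% to 1.41% in EV libraries of MutuDC. All 14 conventional dendritic cell markers had counts in every MutuDC library, the lowest being Itgae at 0.39 to 1.71 CPM, and all 6 leukocyte markers had counts in every CD45 library. In the CD45 set, the first Vkine library had 10.6% mitochondrial counts, against 2.47% and 2.75% in the other Vkine libraries and 4.32% to 5.56% in EV libraries. Erythroid markers summed to 313.9 CPM in that first Vkine library of the CD45 set. They summed to 11.1 and 13.0 CPM in the other Vkine libraries and 8.47 to 28.55 CPM in EV libraries. The part of these markers in the CD45 values was not tested. On the first principal component of that set (35.7% of the variance), the second EV library had a score of 69.95, against scores of -45.85 to 24.99 in the others. On the first component of the MutuDC set (37.4%), Vkine with LPS had scores of -39.86 to -35.19 and Vkine of 36.26 to 44.68. EV with LPS (-9.27 to 8.86) and EV (-0.75 to -0.57) lay between them and overlapped each other.

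The core of the C/EBP-ATF response element, TGATGNAA on either strand (TTNCATCA on the reverse), was searched in RefSeq promoter windows of 300 bases, 250 before and 50 after each gene start, on GRCm38.p6. All 10 genes had a window, 12 windows in all because Atf5 and Psat1 have more than 1. The motif was in the windows of 3 of the 10 genes, Asns, Chac1 and Trib3, against 4.51% of 27025 genes in the table. These are also the genes with the highest fold changes of the set under Vkine without LPS, and their sequences are shown for that reason, with the motif in capitals and the strand of the gene. Asns is read from chr6:7693225-7693459 (minus strand, bases -250 to -16), Chac1 from chr2:119350992-119351241 (plus strand, bases -250 to -1) and Trib3 from chr2:152344028-152344057 (minus strand, bases 4 to 33 after the start).
Asns: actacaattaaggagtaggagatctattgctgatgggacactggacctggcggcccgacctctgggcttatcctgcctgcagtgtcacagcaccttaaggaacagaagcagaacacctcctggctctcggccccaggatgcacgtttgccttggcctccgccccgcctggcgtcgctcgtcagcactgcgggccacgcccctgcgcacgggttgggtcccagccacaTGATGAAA
Chac1: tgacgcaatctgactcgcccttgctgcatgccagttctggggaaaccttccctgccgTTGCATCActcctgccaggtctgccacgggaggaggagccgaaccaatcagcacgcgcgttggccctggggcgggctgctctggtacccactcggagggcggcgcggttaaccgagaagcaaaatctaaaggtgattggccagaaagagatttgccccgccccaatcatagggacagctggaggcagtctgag
Trib3: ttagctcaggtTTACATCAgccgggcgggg

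The Asns motif spans bases -23 to -16 and reads TGATGAAA, that of Chac1 spans bases -193 to -186 as TTGCATCA, and that of Trib3 spans bases 15 to 22 as TTACATCA. The gene starts of the deposited tables lie 45 bases upstream of the RefSeq start for Asns, 13 bases upstream for Chac1 and 28 bases downstream for Trib3. Among the 9436 tested MutuDC genes with a window, the motif was in 2.72%. It was in 3.89% (64 of 1646) of the genes called higher in Vkine than in EV and in 2.01% (39 of 1938) of those called lower. For EV with LPS against EV these shares were 3.26% higher and 1.95% lower, for Vkine with LPS against EV with LPS they were 3% and 3%, and for Vkine with LPS against Vkine 2.49% and 3.61%. No test was run on them. The full cyclic AMP response element TGACGTCA was in 0 of the 10 genes, against 2.03% of all genes in the table. A match is a description of letters in these windows and says nothing on binding.

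Without LPS, Vkine MutuDC had more mRNA of 6 of the 10 genes than EV MutuDC and less of 0, at an adjusted p under 0.05 (edgeR quasi-likelihood F test, Benjamini-Hochberg adjustment over all tested genes). Over all genes 35.2% were called in this comparison, 16.9% higher and 18.3% lower; 48% of these calls were higher, against 61.9% with library totals only. Trib3, Chac1 and Asns had the highest fold changes, followed by Atf5, Ddit3 and Sesn2, while Atf4 itself, both serine synthesis genes and Ddit4 were not called. The median log2 fold change was 0.74 over the 10 genes and 0.01 over all tested genes. The mitochondrial share was 1.72% to 1.86% in Vkine and 1.36% to 1.41% in EV, and marker sums differed too. Conventional dendritic cell markers summed to 16000 to 16720 CPM in Vkine and 18210 to 18650 CPM in EV (14 markers), neutrophil markers to 3176 to 3608 CPM in Vkine and 2010 to 2051 CPM in EV (12) with 9 to 11 at 0 in Vkine and 8 to 9 in EV, and monocyte markers to 43.4 to 51.2 CPM in Vkine and 24.1 to 25.1 CPM in EV (6). The neutrophil sum was nearly all Mmp9, while S100a8, S100a9 and Ly6g were at 0 in every MutuDC library, and the monocyte sum was mostly Ccr2, with Ly6c2 at 0.0552 CPM or less and Plac8 at 0. The part of the mitochondrial share and the dendritic cell markers in the result was not tested. In bulk RNA, a change in level per cell and a change in the share of cells that express a gene cannot be told apart.

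**Figure D1:**
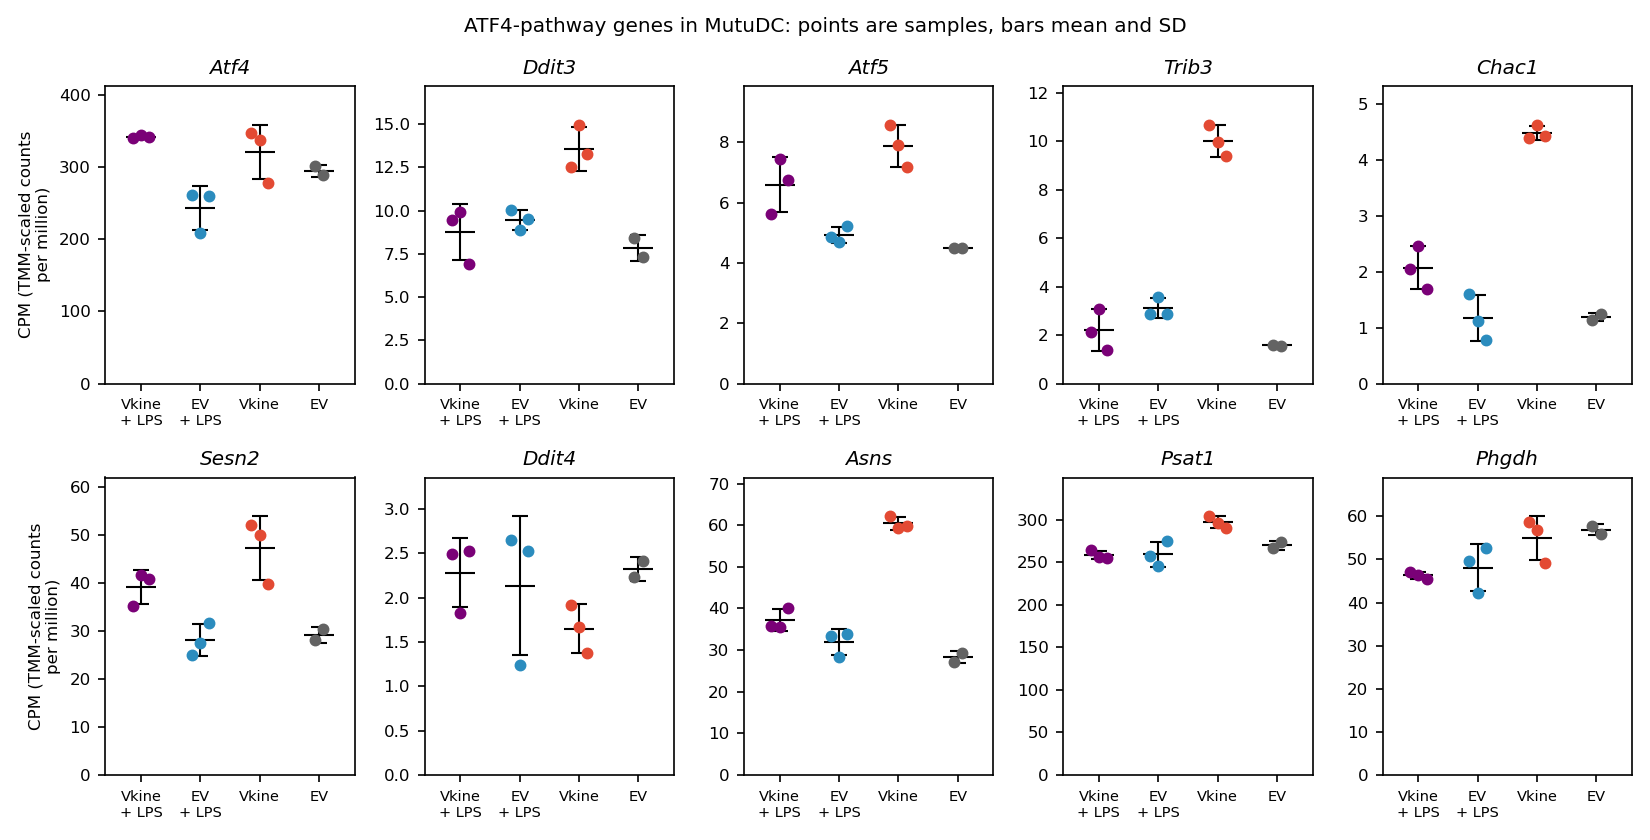
Level of each of the 10 genes in MutuDC, in CPM (TMM-scaled; linear axes from 0); points are samples and bars the mean and SD (n = 3 per group, n = 2 for EV). Ddit3, Trib3, Asns, Chac1 and Psat1 have all 3 Vkine samples above every sample of the other groups, while Atf4 is lowest in EV with LPS.

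Among the transcription factors, Atf4 (chr15:80255184-80257541, plus strand) had 347, 337.5 and 278 CPM in Vkine samples, against 300.5 and 288 CPM in EV samples. CPM are counts scaled to a common library total, with TMM factors. The groups overlapped, with the third Vkine sample below both EV samples, and the log2 fold change was 0.12 ± 0.10 (SE; 95% interval -0.09 to 0.34; adjusted p = 0.363). Ddit3, which encodes the stress factor CHOP (chr10:127290774-127296288, plus strand), had 12.5, 14.97 and 13.3 CPM in Vkine samples, against 8.40 and 7.31 CPM in EV samples. Every Vkine sample was above both EV samples, a 1.73-fold rise (log2 0.79 ± 0.15 SE, adjusted p = 0.000828). Atf5, a related factor whose mRNA is also under eIF2-dependent translation (chr7:44812256-44816658, minus strand), had 8.57, 7.90 and 7.17 CPM in Vkine samples, against 4.51 and 4.48 CPM in EV samples. It too was higher in every Vkine sample, by 1.75-fold (log2 0.81 ± 0.16 SE, adjusted p = 0.000871).

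Trib3 (chr2:152337422-152344032, minus strand) encodes a pseudokinase that binds ATF4 and AKT. It had 10.7, 9.98 and 9.38 CPM in Vkine samples, against 1.61 and 1.53 CPM in EV samples, from raw counts of 157 to 212 against 26 and 31. No sample of one group came near the other, and the rise was 6.36-fold (log2 2.67 ± 0.25 SE, adjusted p = 7.29e-07). Chac1 (chr2:119351229-119354381, plus strand), an enzyme that breaks down glutathione, had 4.38, 4.63 and 4.42 CPM in Vkine samples, against 1.14 and 1.24 CPM in EV samples. Its rise was 3.76-fold (log2 1.91 ± 0.27 SE, adjusted p = 5.22e-05), again with no overlap.

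Sesn2 and Ddit4 encode stress-induced inhibitors of the growth kinase complex mTORC1, Sestrin 2 as a leucine sensor and REDD1 through the TSC complex. Sesn2 (chr4:132492032-132510501, minus strand) had 52.1, 50.05 and 39.7 CPM in Vkine samples, against 28.1 and 30.4 CPM in EV samples. All Vkine samples were above EV, with the third closest, and the rise was 1.62-fold (log2 0.70 ± 0.13 SE, adjusted p = 0.000477). Ddit4 (chr10:59949669-59951834, minus strand) had 1.92, 1.66 and 1.37 CPM in Vkine samples, against 2.23 and 2.42 CPM in EV samples. All Vkine samples were below EV, but from only 23 to 38 raw counts against 41 and 43, and the difference did not pass the test (log2 -0.48 ± 0.30 SE, adjusted p = 0.235).

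The amino acid enzymes did not move together. Asns, asparagine synthetase (chr6:7675169-7693254, minus strand), had 62.1, 59.4 and 59.7 CPM in Vkine samples, against 27.3 and 29.4 CPM in EV samples. It was 2.13-fold higher (log2 1.09 ± 0.10 SE, adjusted p = 4.36e-07), with tight replicates and no overlap. Phgdh (chr3:98313170-98339990, minus strand), the entry enzyme of serine synthesis, had 58.8, 56.8 and 49.1 CPM in Vkine samples, against 57.8 and 55.9 CPM in EV samples. Psat1 (chr19:15904678-15947337, minus strand), the next enzyme, had 304.1, 297 and 291 CPM in Vkine samples, against 266.5 and 273 CPM in EV samples. Phgdh overlapped between the groups (log2 -0.05 ± 0.10 SE, adjusted p = 0.721). Psat1 was higher in every Vkine sample, by a log2 difference of 0.14 ± 0.07 SE that was not called (adjusted p = 0.114) but passed in 5 of 16 alternative analyses, among them scaling by library totals only (log2 0.22, adjusted p = 0.0112).

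The same 6 genes were called in each of the 16 alternatives of this comparison. Without overlap between the samples, 7 genes lay above and 1 below, where 32.1% of all tested genes lay above and 32.3% below, so a lack of overlap by itself was common here. Reads of overlapping genes can blur these counts, since no source used here gives the strand setting of the counting. Atf5 overlaps Nup62 on the opposite strand, and Nup62 went the other way, 83.2 ± 6.8 CPM in Vkine (SD, n = 3) and 114.6 ± 2.6 CPM in EV (SD, n = 2; log2 -0.46 ± 0.08 SE, adjusted p = 0.000497). Ddit3 overlaps Mars on the opposite strand, which had 140.9 ± 7.5 CPM in Vkine and 130.4 ± 0.8 CPM in EV (log2 0.11 ± 0.08 SE, adjusted p = 0.265). Ddit3 also overlaps its own second identifier on the same strand and Gm4189 on the opposite strand. Sesn2 overlaps Gm12981 on the same strand and Psat1 holds the pseudogene Gm3329. Atf5 also overlaps Il4i1 on the opposite strand. The counts of Atf5, Ddit3, Sesn2 and Psat1 are uncertain to that extent.

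**Figure D2:**
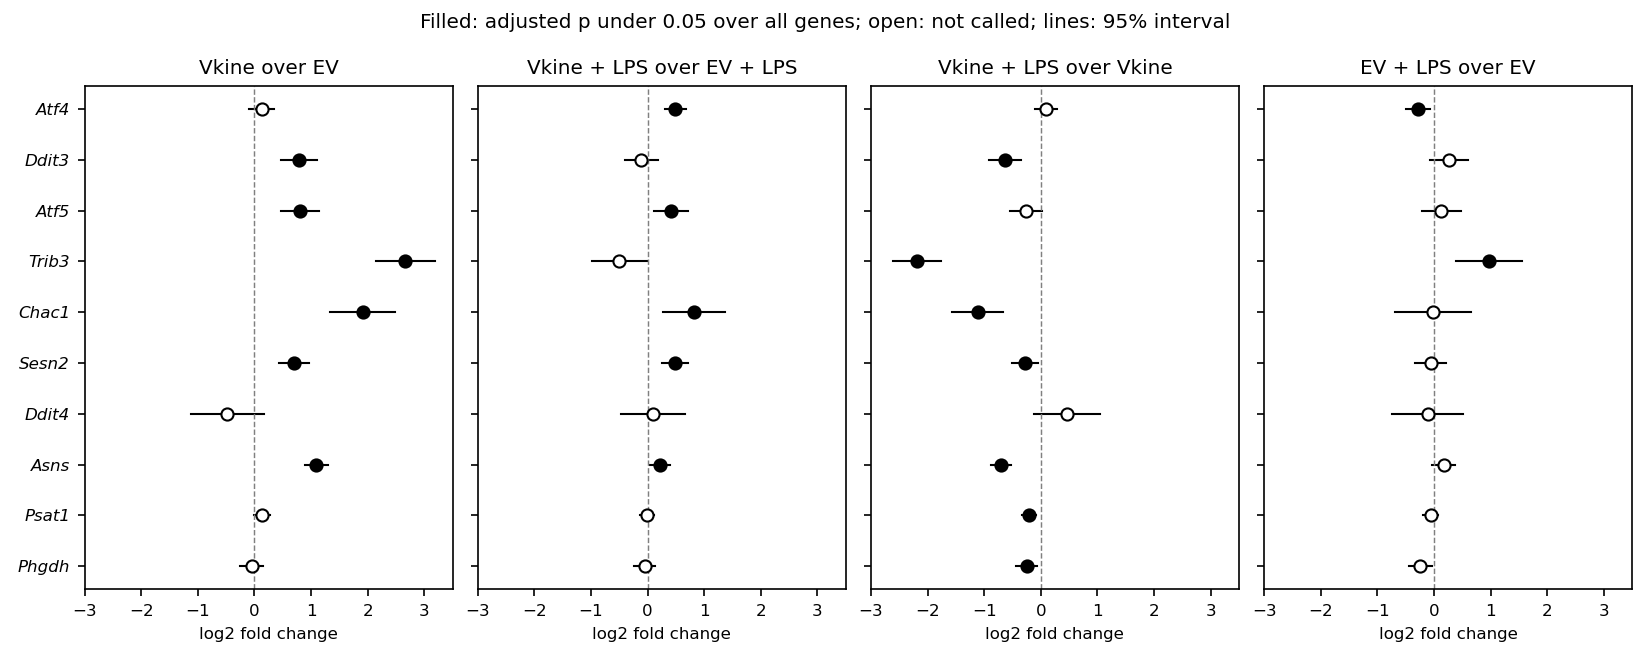
Log2 fold changes of the 10 genes in the MutuDC comparisons, with 95% intervals from the edgeR fit; filled points passed an adjusted p of 0.05 over all genes and open points did not. Filled points lie right of 0 in both Vkine comparisons and left of 0 for Vkine with LPS over Vkine, and EV with LPS over EV has 1 on each side.

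With LPS in both arms, Vkine again gave more mRNA of 5 of the 10 genes and less of 0, against 42.0% of all genes called, 22.8% higher and 19.2% lower (54.3% of calls higher, against 41.9% with library totals only). Atf4, Chac1, Sesn2, Atf5 and Asns rose, each by less than a factor of 2, and Ddit3 and Trib3 were not called. The median over the 10 genes was 0.16 on the log2 scale, against 0.01 over all genes. In these arms the mitochondrial share also differed, 0.936% to 1.03% in Vkine with LPS and 1.73% to 1.96% in EV with LPS. So did macrophage markers (351.5 to 392 CPM in Vkine with LPS, 225 to 267 CPM in EV with LPS, over 12). Conventional dendritic cell markers summed to 19800 to 21220 CPM in Vkine with LPS and 16660 to 19650 CPM in EV with LPS. Without LPS the order of that sum was the reverse. Leukocyte markers summed to 3583 to 3762 CPM in Vkine with LPS and 2946 to 3332 CPM in EV with LPS. Monocyte markers were lower, at 30.2 to 34.2 CPM in Vkine with LPS and 41.5 to 45.0 CPM in EV with LPS. The part of the mitochondrial share and these markers in the result was not tested. Among the macrophage markers, Cx3cr1 was at 0 and Mrc1, Mertk and Trem2 at 0.12 CPM or less in every MutuDC library. Cd68 ran from 90.4 to 121 CPM and Csf1r from 21.9 to 148 CPM over all MutuDC libraries.

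Atf4 had 339.7, 344 and 341 CPM in Vkine with LPS, against 262, 208 and 259 CPM in EV with LPS. The Vkine samples were nearly equal and all above EV, a 1.41-fold rise (log2 0.49 ± 0.09 SE, adjusted p = 0.00044) that was called in all 17 alternatives. Sesn2 had 35.2, 41.6 and 40.9 CPM in Vkine with LPS, against 25.1, 27.5 and 31.6 CPM in EV with LPS. It was 1.40-fold higher (log2 0.48 ± 0.11 SE, adjusted p = 0.00263), likewise in all 17 alternatives.

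Chac1 had 2.05, 2.46 and 1.70 CPM in Vkine with LPS, against 1.6, 1.118 and 0.784 CPM in EV with LPS. These values rest on 31 to 43 raw counts against 14 to 29, and the groups came close but did not overlap (log2 0.82 ± 0.26 SE, adjusted p = 0.0181). The call ended in 3 of 17 alternatives: without EV with LPS sample 3 (log2 0.59, adjusted p = 0.0788), without Vkine with LPS sample 2 (0.68, 0.0813) and in a fit of these groups alone (0.79, 0.0605). Atf5 had 5.61, 7.44 and 6.74 CPM in Vkine with LPS, against 4.86, 4.71 and 5.21 CPM in EV with LPS. It rose by 0.42 ± 0.14 (log2, SE; adjusted p = 0.0258), a call that ended in 7 of 17 alternatives, with adjusted p of 0.0564 to 0.119 when EV sample 1 or 2 or Vkine sample 2 or 3 of the LPS arms was left out. Nup62, which overlaps Atf5, was higher here as well (123.5 ± 4.6 CPM in Vkine with LPS and 88.3 ± 7.2 CPM in EV with LPS, SD, n = 3 each; log2 0.48 ± 0.08 SE, adjusted p = 0.000112).

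Asns had 35.8, 35.7 and 40.2 CPM in Vkine with LPS, against 33.4, 28.4 and 33.9 CPM in EV with LPS. Its rise was small (log2 0.22 ± 0.08 SE, adjusted p = 0.0461) and was called in only 3 of 17 alternatives, with adjusted p of 0.0531 to 0.201 when any one of 5 samples was left out, EV sample 3 being the exception. Trib3 had 2.15, 3.09 and 1.37 CPM in Vkine with LPS, against 2.87, 3.59 and 2.86 CPM in EV with LPS. The groups overlapped through the second Vkine sample and the difference was not called (log2 -0.50 ± 0.23 SE, adjusted p = 0.093). It was called lower in 3 of 17 alternatives, in limma on FPKM with pseudocounts of 1 (-0.43, adjusted p = 0.048) and 0.1 (-0.61, adjusted p = 0.0464) and without that sample (-0.80, adjusted p = 0.014). Ddit3 had 9.46, 9.90 and 6.90 CPM in Vkine with LPS, against 10.04, 8.88 and 9.52 CPM in EV with LPS, with overlap (log2 -0.11 ± 0.14 SE, adjusted p = 0.532).

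The remaining genes overlapped between these arms. Psat1 had 264.5, 256 and 255 CPM in Vkine with LPS, against 257, 246 and 275 CPM in EV with LPS (adjusted p = 0.965). Phgdh had 47.1, 46.4 and 45.4 CPM in Vkine with LPS, against 49.5, 42.1 and 52.6 CPM in EV with LPS (adjusted p = 0.649). Ddit4 had 2.49, 1.83 and 2.52 CPM in Vkine with LPS, against 2.65, 1.24 and 2.52 CPM in EV with LPS (adjusted p = 0.804). The 95% interval of the log2 difference was -0.13 to 0.12 for Psat1, -0.24 to 0.13 for Phgdh and -0.47 to 0.65 for Ddit4.

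Whether the Vkine difference itself depended on LPS was tested by an interaction term, the log2 difference with LPS minus that without. It was called for 5 of the 10 genes, 1 higher and 4 lower, where 49.2% of all genes were called, 25.5% higher and 23.7% lower (51.8% of calls higher, against 37.7% with library totals only). Trib3 had an interaction of -3.17 ± 0.34 (SE, adjusted p = 1.85e-06), Ddit3 of -0.90 ± 0.20 (adjusted p = 0.00173) and Asns of -0.87 ± 0.13 (adjusted p = 3.9e-05), each called in all 21 alternatives. Chac1 had -1.09 ± 0.38 (adjusted p = 0.0259), with adjusted p of 0.0516 to 0.104 in the 4 alternatives that ended the call: without EV sample 1 or 2, EV with LPS sample 1 or Vkine with LPS sample 3. Atf4 went the other way, 0.37 ± 0.13 (adjusted p = 0.033), but this call ended in 11 of 21 alternatives, for example with library totals only (0.21, adjusted p = 0.184), without EV sample 1 (0.30, adjusted p = 0.143) or without Vkine sample 3 (0.27, adjusted p = 0.0845). Sesn2, Atf5, Psat1, Phgdh and Ddit4 were not called, with 95% intervals that all include 0; Psat1 was called in 5 alternatives (log2 -0.18 to -0.30) and Atf5 in 3 (-0.45 to -0.55).

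**Figure D3:**
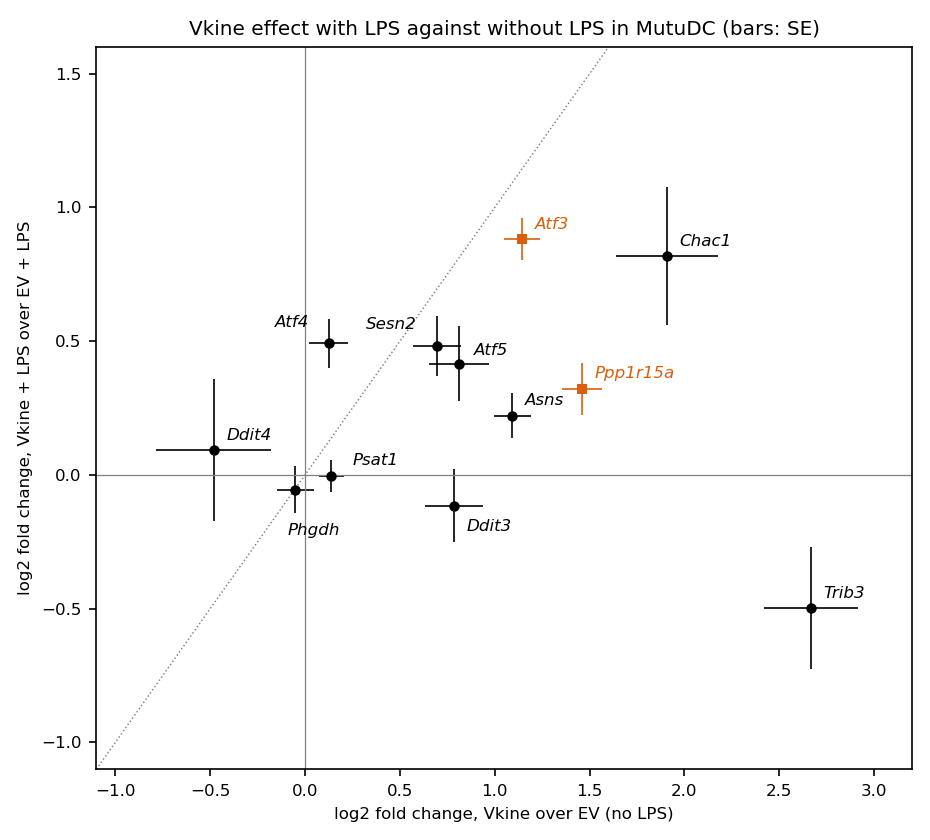
Log2 fold change of Vkine with LPS over EV with LPS (vertical) against Vkine over EV (horizontal) in MutuDC, with SE bars, for the 10 genes (black) and for Atf3 and Ppp1r15a (orange squares); the dotted line marks equal values. Trib3 lies at 2.67 and -0.50 and Asns at 1.09 and 0.22, both under the line, while Atf4 lies above it at 0.12 and 0.49.

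In EV MutuDC with LPS against EV without it, 1 of 10 genes was called higher and 1 lower, against 34.8% of all genes (17.2% higher, 17.6% lower). Trib3 had 2.87, 3.59 and 2.86 CPM in EV with LPS, against 1.61 and 1.53 CPM in EV. It was 1.97-fold higher, with no overlap (log2 0.98 ± 0.28 SE, adjusted p = 0.0119), and the call ended when EV sample 1 (1.01, adjusted p = 0.0707) or EV sample 2 (0.95, adjusted p = 0.075) was left out. Atf4 had 262, 208 and 259 CPM in EV with LPS, against 300.5 and 288 CPM in EV. It was lower in all 3 samples (log2 -0.28 ± 0.10 SE, adjusted p = 0.0421), but the call ended in 9 of 16 alternatives, among them those without EV sample 1 (adjusted p = 0.192), EV sample 2 (0.108) or EV with LPS sample 2 (log2 -0.18, adjusted p = 0.0604). The other 8 genes had log2 fold changes of -0.24 (Phgdh, adjusted p = 0.064) to 0.27 (Ddit3, adjusted p = 0.195). Of these, Asns was called without EV with LPS sample 2 (log2 0.25, adjusted p = 0.0255) and Phgdh without EV with LPS sample 3 (log2 -0.31, adjusted p = 0.0159).

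In Vkine MutuDC with LPS against Vkine without it, 0 of 10 genes were called higher and 7 lower, against 51.9% of all genes (27.6% higher, 24.3% lower; 53.3% of calls higher, against 38.5% with library totals only). Vkine against EV and EV with LPS against EV share the EV libraries, and this comparison uses the same 3 Vkine libraries as Vkine against EV. A gene high in those Vkine libraries is high in one comparison and low in the other by construction. Vkine with LPS against EV with LPS likewise shares the EV with LPS libraries with EV with LPS against EV. A gene low in them is high in the first and low in the second by construction. The mitochondrial share was 0.936% to 1.03% in Vkine with LPS and 1.72% to 1.86% in Vkine, the neutrophil marker sum (Mmp9) 2156 to 2246 CPM in Vkine with LPS and 3176 to 3608 CPM in Vkine, and the macrophage marker sum 351.5 to 392 CPM in Vkine with LPS and 215 to 243 CPM in Vkine, and their part was not tested. Trib3 was lower in Vkine with LPS, at 1.37 to 3.09 CPM against 9.38 to 10.7 CPM in Vkine (log2 -2.19 ± 0.20 SE, adjusted p = 2.5e-07). Chac1 fell to 1.70 to 2.46 CPM in Vkine with LPS, against 4.38 to 4.63 CPM in Vkine (log2 -1.11 ± 0.21 SE, adjusted p = 0.000408). These differences left no overlap.

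Asns fell to 35.7 to 40.2 CPM in Vkine with LPS, against 59.4 to 62.1 CPM in Vkine (log2 -0.70 ± 0.08 SE, adjusted p = 4.01e-06). Ddit3 fell to 6.90 to 9.90 CPM in Vkine with LPS, against 12.5 to 14.97 CPM in Vkine (log2 -0.63 ± 0.13 SE, adjusted p = 0.000842). Both serine synthesis genes were lower by smaller steps, Psat1 by a log2 difference of -0.20 ± 0.06 (adjusted p = 0.00924) and Phgdh of -0.25 ± 0.09 (adjusted p = 0.0265). Sesn2 overlapped between the groups and was called narrowly (log2 -0.27 ± 0.11, adjusted p = 0.0455). Leaving out any 1 of 5 samples ended the call of Sesn2 (adjusted p 0.0555 to 0.193), Vkine sample 3 being the exception, and that of Phgdh (0.0535 to 0.11), again with Vkine sample 3 the exception. Atf4 (log2 0.09 ± 0.09 SE, adjusted p = 0.421) and Atf5 (-0.26 ± 0.13, adjusted p = 0.106) were not called, nor was Ddit4 (0.46 ± 0.27, adjusted p = 0.169).

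Set in order of mean CPM, Vkine was the highest MutuDC group for 7 of the 10 genes. For Ddit3, Trib3, Asns, Chac1 and Psat1 no sample of the next group reached it, whereas for Sesn2 and Atf5 it overlapped Vkine with LPS. How many of all tested genes had Vkine as the highest group was not counted, so these counts cannot mark a trait of the set. Against EV alone, 32.1% of all tested genes had every Vkine sample above. Asns and Chac1 had Vkine with LPS second, apart from both EV groups, and Ddit3 and Trib3 had EV with LPS second, overlapping Vkine with LPS. Atf4 was highest in Vkine with LPS and lowest in EV with LPS, and only EV with LPS lay apart from its neighbour in that order. Phgdh and Ddit4 were highest in EV, and no neighbouring groups were separate for either. Per length, in the authors' FPKM (fragments scaled by gene length and library size), EV MutuDC held most Psat1 (216 ± 4.8) and Atf4 (197 ± 4.9), then Phgdh (61.8 ± 1.2) and Asns (28.3 ± 1.6), with Chac1 (0.715 ± 0.045) lowest (SD, n = 2 each).

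Over the 11 MutuDC samples, the closest pairs of the set by the root mean square difference of z-scored log2 CPM were Sesn2 with Atf5 (0.293), Ddit3 with Trib3 (0.327) and Asns with Chac1 (0.408), and the farthest was Trib3 with Ddit4 (1.72). Among 9393 other protein-coding genes, the profile closest to Trib3 was that of Samsn1 (0.158), then Dhcr7 (0.23) and Acss2 (0.245). Asns was closest to Scpep1 (0.176), Ppp1r15a (0.18) and Nr4a1 (0.2), and Ddit3 to Itfg1 and Nr6a1 (0.339 each) and Dhcr7 (0.352). Such distances describe 11 libraries in 4 groups and share depth and scaling.

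Other genes of the pathway were read from lists by role. In Vkine against EV without LPS, the list labelled other stress targets of ATF4 had 7 genes higher and 0 lower of 15 tested. Its median log2 was 0.31, against 0.01 over all genes, of which 16.9% were called higher and 18.3% lower. Whether ATF4 acts on the genes of this list in these cells was not tested. Trib1 rose by 0.66 ± 0.08, Sesn3 by 0.40 ± 0.13, the cell cycle inhibitor Cdkn1a by 0.38 ± 0.07 and the endoplasmic reticulum oxidase Ero1l by 0.35 ± 0.10 (log2, SE; adjusted p = 1.53e-05, 0.0271, 0.000713 and 0.0132 in that order). Of the C/EBP and ATF partners 4 were higher and 1 lower of 11 (median 0.20). Atf3, itself an ATF4 target, had 44.7, 46 and 43.7 CPM in Vkine samples, against 20.8 and 19.7 CPM in EV samples, and rose 2.21-fold (log2 1.14 ± 0.09 SE, adjusted p = 1.53e-07). The stress protein gene Nupr1 rose by 2.22 ± 0.43 at a low level (2.06 ± 0.26 CPM in Vkine, n = 3, and 0.436 ± 0.12 CPM in EV, n = 2, SD), and Crebrf rose by 0.97 ± 0.16, while Batf3, a factor that cDC1 cells depend on, fell by 0.77 ± 0.11 (log2, SE).

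In Vkine without LPS, each amino acid list had more genes called higher than lower, where 16.9% of all genes were called higher and 18.3% lower. Transporters had 5 higher and 1 lower of 12 (median 0.16), with Slc7a11, the cystine importer, up by 1.88 ± 0.28, the neutral amino acid carrier Slc1a4 by 1.31 ± 0.17 and Slc38a2 by 0.33 ± 0.07 (log2, SE). The glycine transporter gene Slc6a9 also rose, at 6.75 ± 0.97 CPM in Vkine (n = 3) and 2.95 ± 0.58 CPM in EV (n = 2, SD). Synthesis and one-carbon enzymes had 6 higher and 3 lower of 20 (median 0.16). Cth, which makes cysteine from cystathionine, rose by 2.60 ± 0.31 (4.73 ± 0.37 CPM in Vkine, n = 3, and 0.793 ± 0.46 CPM in EV, n = 2, SD), Bcat1 by 1.77 ± 0.16, Gpt2 by 1.28 ± 0.13 and Pck2 by 1.01 ± 0.11 (log2, SE). The list of cytosolic aminoacyl-tRNA synthetases, which also holds the tRNA exporter gene Xpot (higher, log2 0.20), had 8 higher and 3 lower of 21 (median 0.10), with Cars up by 0.78 ± 0.09, Sars by 0.53 ± 0.09 and Nars by 0.52 ± 0.06, and Farsa down by a log2 change of -0.48 ± 0.07 (SE).

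The sensors and eIF2 machinery had 4 higher and 3 lower of 19 (median 0.01), near the shares over all genes (16.9% higher and 18.3% lower). Ppp1r15a encodes GADD34, which directs the removal of phosphate from eIF2. It had 34.9, 33.4 and 32.5 CPM in Vkine samples, against 11.3 and 13.2 CPM in EV samples, a 2.76-fold rise with no overlap (log2 1.46 ± 0.11 SE, adjusted p = 4.08e-08). Of the eIF2 kinases, Eif2ak2 (PKR, which binds double-stranded RNA) rose by 0.72 ± 0.13 and Eif2ak4 (GCN2, which senses uncharged tRNA) by 0.39 ± 0.09 (log2, SE; adjusted p = 0.000584 and 0.00228). Eif2ak3 (PERK) had 41.9 ± 1.3 CPM in Vkine and 40.5 ± 0.3 CPM in EV, and Eif2ak1 (HRI) had 65.1 ± 4.2 CPM in Vkine and 66.7 ± 2.9 CPM in EV (SD, n = 3 and n = 2), and neither was called. Gcn1l1, the partner through which GCN2 is activated, fell by 0.53 ± 0.09, and Eif2b1 had a log2 change of -0.40 ± 0.09 (SE).

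The XBP1 and ATF6 chaperone list, another arm of the endoplasmic reticulum stress response, had 3 higher and 6 lower of 23 in Vkine against EV (median -0.06), near the shares over all genes (16.9% higher and 18.3% lower). The chaperone gene Hspa5 had 1732 ± 14 CPM in Vkine and 1897 ± 7 CPM in EV, and Xbp1 had 138 ± 2 CPM in Vkine and 136 ± 0.7 CPM in EV (SD, n = 3 and n = 2); neither was called. Dnajb9 rose by 0.66 ± 0.10 and Herpud1 by 0.50 ± 0.06, while Hyou1 (log2 -0.49 ± 0.06) and the ligase gene Syvn1 (-0.50 ± 0.07) fell. Hypoxia genes had 2 higher and 3 lower of 12 (median -0.02) and mTORC1 pathway components 2 higher and 6 lower of 20 (median -0.02), among them Mlst8 at -0.81 ± 0.10, Akt1s1 at -0.66 ± 0.15 and Rptor at -0.35 ± 0.08, with the GTPase gene Rragc up by 0.39 ± 0.07 (log2, SE).

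**Figure D4:**
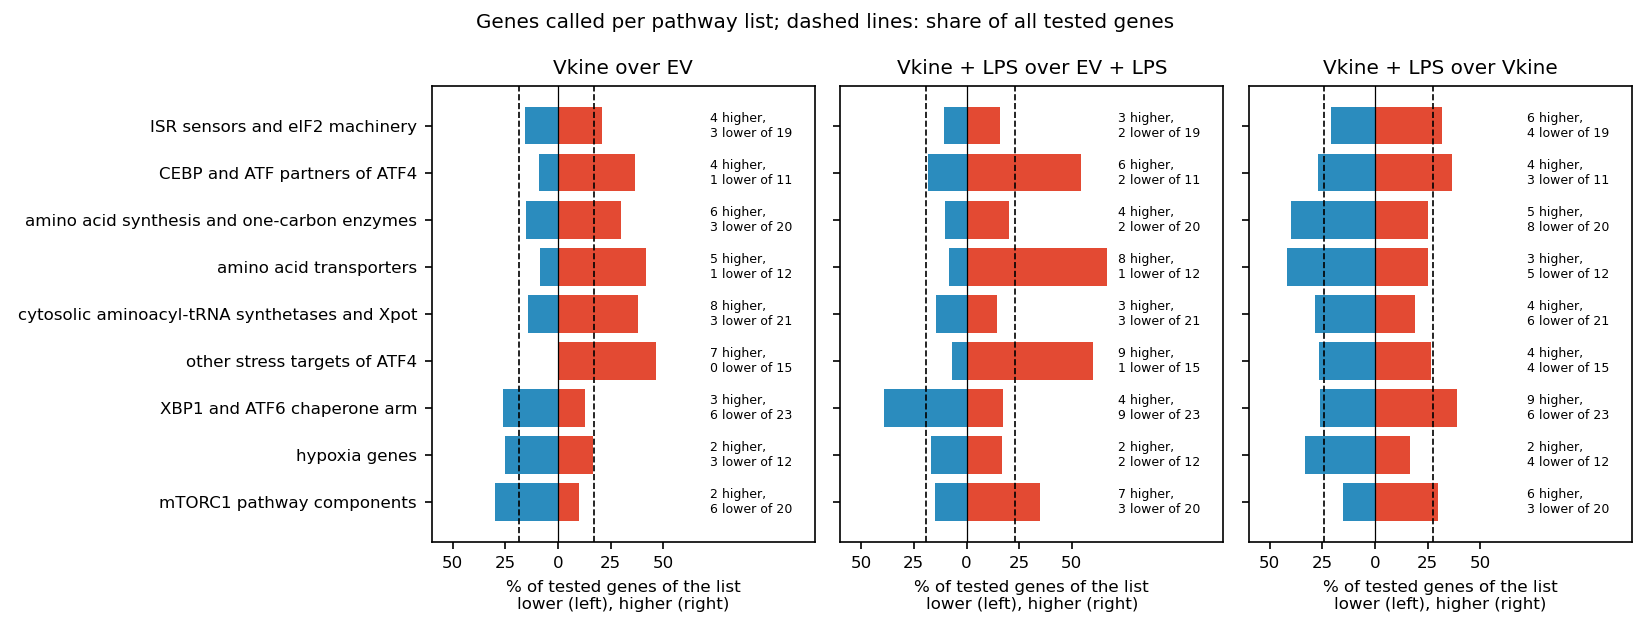
Share of tested genes of each pathway list called higher (red, right of 0) or lower (blue, left of 0) in the MutuDC comparisons, with the counts at the right; dashed lines mark the share of all tested genes called in that direction. In Vkine over EV, other stress targets of ATF4 have 7 higher and 0 lower of 15, and the XBP1 and ATF6 chaperone arm has 3 higher and 6 lower of 23.

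With LPS in both arms, Vkine against EV had 9 stress targets higher and 1 lower of 15 (median 0.32, against 0.01 over all genes), 8 transporters higher and 1 lower of 12 (median 0.34) and 6 C/EBP and ATF partners higher and 2 lower of 11 (median 0.50), where 22.8% of all genes were called higher and 19.2% lower. Cdkn1a rose by 1.49 ± 0.06, Trib1 by 0.73 ± 0.08 and the autophagy receptor gene Sqstm1 by 0.61 ± 0.07, while Trib2 was lower at -1.75 ± 0.17 (log2, SE). Slc7a11 rose by 1.43 ± 0.21, and both chains of the large neutral amino acid transporter did, Slc7a5 by 0.58 ± 0.06 and Slc3a2 by 0.50 ± 0.08 (log2, SE). In EV with LPS against EV, which uses the same EV with LPS libraries, 7 of the 12 transporters were called lower. Atf3 had 44.1, 45.8 and 45.4 CPM in Vkine with LPS, against 23.8, 22.5 and 27.0 CPM in EV with LPS (log2 0.88 ± 0.08 SE, adjusted p = 5.78e-07). Jdp2 rose by 0.80 ± 0.09 and Cebpd by 0.70 ± 0.11, and Crebrf was lower at -0.81 ± 0.14 (log2, SE).

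The remaining lists had smaller medians with LPS, in the comparison where 22.8% of all genes were called higher and 19.2% lower. Synthesis enzymes had 4 higher and 2 lower of 20 (median 0.09), synthetases with Xpot 3 and 3 of 21 (median 0.02), sensors 3 and 2 of 19 (median 0.03), the chaperone list 4 and 9 of 23 (median -0.03), hypoxia genes 2 and 2 of 12 (median -0.03) and mTORC1 components 7 and 3 of 20 (median 0.06). Ppp1r15a had 14.7, 15.6 and 15.6 CPM in Vkine with LPS, against 12.5, 11.1 and 13.0 CPM in EV with LPS, a 1.25-fold rise without overlap (log2 0.32 ± 0.10 SE, adjusted p = 0.0138). Eif2ak2 had 183, 168 and 178 CPM in Vkine with LPS, against 168, 225 and 146.5 CPM in EV with LPS, and was not called. Eif2ak1 was lower (log2 -0.19 ± 0.07 SE, adjusted p = 0.0348), as was Xbp1 (-0.23 ± 0.06, adjusted p = 0.00682), and Eif2ak3, Eif2ak4 and Hspa5 were not called. Bcat1, which was higher in Vkine than in EV without LPS, was lower here (log2 -0.86 ± 0.16 SE, adjusted p = 0.000414), as were Cars (-0.23 ± 0.08, adjusted p = 0.0196), Slc38a2 (-0.38 ± 0.07, adjusted p = 0.000246) and Dnajb9 (-0.86 ± 0.09, adjusted p = 2.02e-06). Herpud1 was higher, at 495 ± 3.4 CPM in Vkine with LPS and 247.5 ± 12 CPM in EV with LPS (SD, n = 3 each).

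In EV MutuDC with LPS against EV, Eif2ak2 was 3.23-fold higher (179.8 ± 40 CPM in EV with LPS, n = 3, and 55.7 ± 0.6 CPM in EV, n = 2, SD; log2 1.69 ± 0.14 SE, adjusted p = 1.92e-07). Transporters had 2 higher and 7 lower of 12 (median -0.31), where 17.2% of all genes were called higher and 17.6% lower, with Slc38a1 at -0.52 ± 0.09, Slc7a1 at -0.49 ± 0.11, Slc1a5 at -0.39 ± 0.07 and Slc7a5 at -0.35 ± 0.07 (log2, SE). Synthesis enzymes had 1 higher and 4 lower of 20 (median 0.06), and stress targets 1 higher and 2 lower of 15 (median 0.01). Atf3 rose by 0.27 ± 0.09 (log2, SE; adjusted p = 0.0344) and Eif2ak3 was lower at -0.20 ± 0.08 (adjusted p = 0.0479). Ppp1r15a had 12.2 ± 1.0 CPM in EV with LPS and 12.2 ± 1.4 CPM in EV and was not called, nor were Eif2ak1, Eif2ak4, Hspa5 and Xbp1.

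Vkine MutuDC with LPS against Vkine had 5 synthesis enzymes higher and 8 lower of 20 (median -0.08) and 3 transporters higher and 5 lower of 12 (median -0.15), where 27.6% of all genes were called higher and 24.3% lower. Bcat1 fell by 2.27 ± 0.14, Gpt2 by 1.45 ± 0.12 and Pck2 by 1.01 ± 0.10, and the transporters Slc6a9 by 1.46 ± 0.19 and Slc36a4 by 1.01 ± 0.15 (log2, SE). Ppp1r15a fell to 15.3 ± 0.5 CPM in Vkine with LPS, against 33.6 ± 1.2 CPM in Vkine (SD, n = 3 each; log2 -1.14 ± 0.09 SE, adjusted p = 4.86e-08). Eif2ak4 (-0.29 ± 0.08), Eif2ak3 (-0.23 ± 0.07) and Xbp1 (-0.22 ± 0.06) were lower and Eif2ak2 (0.94 ± 0.11) was higher (log2, SE), while Eif2ak1 and Hspa5 were not called. Atf3 had 45.1 ± 0.9 CPM in Vkine with LPS and 44.8 ± 1.2 CPM in Vkine (SD, n = 3 each) and was not called. Cdkn1a rose by 1.90 ± 0.06 (log2, SE), opposite to the 7 genes of the set that fell.

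In tumor CD45 samples, 0 of the 10 genes were called in Vkine against EV by edgeR, where only 0.0286% of all genes were called (4 of 14006) and 12.0% had an unadjusted p under 0.05. At that unadjusted threshold Sesn2, Asns and Ddit3 passed, all higher in Vkine. DESeq2 called 1 of the 10 genes, Sesn2 (log2 0.92, adjusted p = 0.0466), among 238 genes. Of the 10 log2 fold changes 8 were positive, with a median of 0.61 against -0.002 over all tested genes. Neutrophil markers also differed between these groups, with a summed level of 3632 to 5660 CPM over 12 markers in Vkine and 454 to 2143 CPM in EV, as did monocyte markers (1215 to 1444 CPM in Vkine, 928.5 to 1159 CPM in EV, over 6) and T cell markers (42.5 to 73.9 CPM in Vkine, 23.7 to 29.4 CPM in EV, over 12). Their part in the values was not tested.

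Sesn2 had 68.8, 72.9 and 100.2 CPM in Vkine, against 43.6, 28.0 and 57.3 CPM in EV. Every Vkine sample was above every EV sample (log2 0.91 ± 0.25 SE, 95% interval 0.34 to 1.47, adjusted p = 0.275 by edgeR). Asns had 13.8, 7.60 and 9.32 CPM in Vkine, against 6.77, 5.93 and 4.79 CPM in EV. These did not overlap either, with the first Vkine sample, that with 10.6% mitochondrial counts, highest (log2 0.81 ± 0.31 SE, adjusted p = 0.354 by edgeR). Ddit4 had 103.1, 102.3 and 182 CPM in Vkine, against 96.5, 34.6 and 90.1 CPM in EV, again with no overlap but a gap of only a few CPM (log2 0.81 ± 0.41 SE, adjusted p = 0.489 by edgeR). The lack of overlap in 3 of 10 genes, all above, stands beside 9.21% of all tested genes above and 9.42% below.

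**Figure D5:**
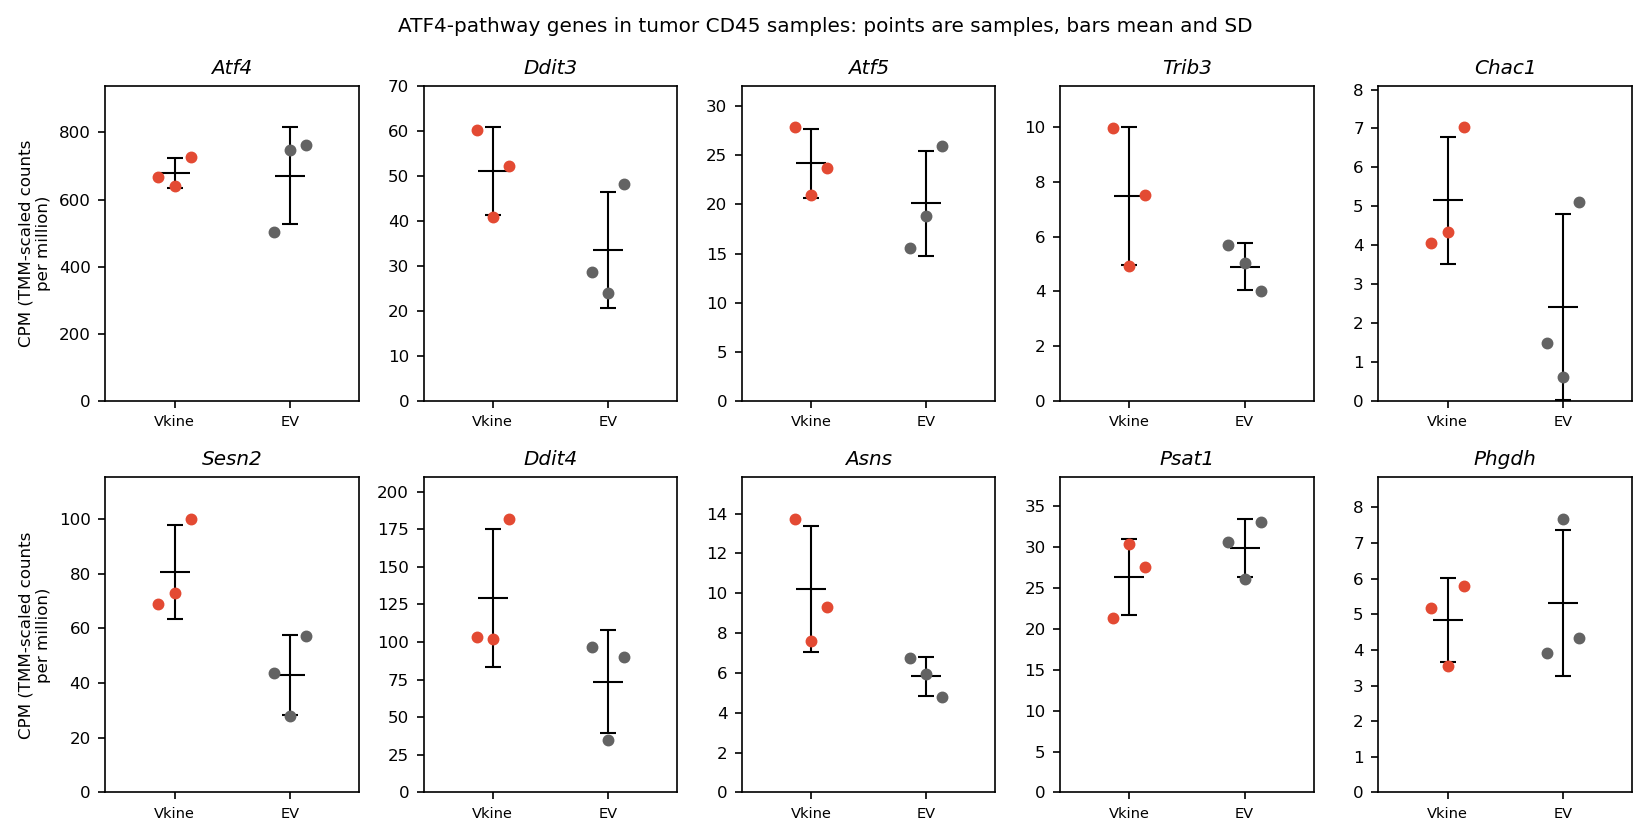
Level of each of the 10 genes in tumor CD45 samples, in CPM (TMM-scaled; linear axes from 0); points are samples and bars the mean and SD (n = 3 per group). Vkine samples lie above all EV samples for Sesn2, Ddit4 and Asns and overlap EV for the other 7 genes.

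The other 7 genes overlapped between the CD45 groups. Ddit3 had 60.3, 40.9 and 52.3 CPM in Vkine, against 28.6, 23.9 and 48.2 CPM in EV, with the third EV sample inside the Vkine range (log2 0.61 ± 0.26 SE, adjusted p = 0.393 by edgeR). Chac1 had 4.07, 4.35 and 7.04 CPM in Vkine, against 1.48, 0.622 and 5.12 CPM in EV, where the third EV sample was again far above the other EV samples (log2 1.10 ± 0.66 SE, adjusted p = 0.535 by edgeR). Trib3 had 9.98, 4.93 and 7.53 CPM in Vkine, against 5.69, 5.03 and 4.01 CPM in EV (log2 0.60 ± 0.34 SE, adjusted p = 0.514 by edgeR). Atf4 had the highest level of the set, at 668, 641 and 727 CPM in Vkine, against 504.5, 747 and 762 CPM in EV (log2 0.02 ± 0.19 SE). Atf5 averaged 24.2 ± 3.5 CPM in Vkine and 20.1 ± 5.3 CPM in EV, Psat1 26.4 ± 4.7 CPM in Vkine and 29.9 ± 3.6 CPM in EV, and Phgdh 4.84 ± 1.2 CPM in Vkine and 5.32 ± 2.1 CPM in EV (SD, n = 3 each).

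Leaving out each CD45 library in turn, the second EV and the first Vkine library included, left 0 of the 10 genes called. The log2 fold change of Sesn2 then ran from 0.67 to 1.17 and that of Asns from 0.53 to 0.98, while that of Chac1 ran from 0.64 to 2.29 and that of Atf4 from -0.15 to 0.12. None of the 9 pathway lists had a gene called in this set by edgeR, and their medians ran from -0.13 for synthetases with Xpot to 0.45 for hypoxia genes, with 0.40 for other stress targets of ATF4. Ppp1r15a averaged 931 ± 191 CPM in Vkine and 578 ± 181 CPM in EV, and Hspa5 1656 ± 370 CPM in Vkine and 1198 ± 74 CPM in EV (SD, n = 3 each), both with overlap. The order of levels per length in CD45 EV samples, by the authors' FPKM, was Atf4 (280 ± 60), Ddit4 (41.3 ± 19), Ddit3 (19.3 ± 7.3) and Sesn2 (12.2 ± 4.1) at the top and Asns (2.10 ± 0.36) and Chac1 (1.44 ± 1.4) at the bottom (SD, n = 3 each). The tables of both sets were normalized apart, so levels were not tested between them.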

How the data were processed

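RNA of 11 MutuDC and 6 tumor CD45 samples was extracted with RNeasy columns and made into libraries with a NEBNext Ultra RNA kit, per the labels' protocols. The submitters' processing notes list the build GRCm38 and, as tools, featureCounts 1.5.0-p3, STAR, DESeq2 1.20.0 and fastp. No source used here gives the versions of fastp and STAR or the strand setting. The authors deposited raw read counts per gene and FPKM values, in separate tables for MutuDC and CD45.

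From the deposited counts, edgeR 4.0.16 in R 4.3.3 fitted its quasi-likelihood F test, with filterByExpr, TMM scaling and robust dispersion, once over all 11 MutuDC samples (EV with n = 2) and once over the 6 CD45 samples. Calls needed an adjusted p under 0.05 (Benjamini-Hochberg, all tested genes together), and the SE was taken as the size of the log2 fold change over the root of F. CPM use TMM-scaled totals. The deposited FPKM were used for levels per length and, with pseudocounts of 1 and 0.1, in limma 3.58.1 as an alternative, on whose scale low genes are understated. The other alternatives were RLE, upper-quartile and totals-only scaling, no filter, a filter at 1 CPM, DESeq2 1.42.0, no robust step, a replicate block, fits of only the groups compared, and fits that left out 1 sample. The code was tested on simulated data.

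The 10 genes and the pathway and marker lists were chosen with earlier results of these data known. Named were the 10 genes, up to 4 called genes with the smallest p of each list in each comparison, and always Eif2ak1 to Eif2ak4, Ppp1r15a, Atf3, Hspa5 and Xbp1; for likeness, the 3 closest protein-coding genes whose log2 CPM (prior count 2) averaged 2 or more. Not every gene that this rule allows was printed. The values of 1 list gene are not reported here, though it is counted in its list. No library held the same values as another. Promoter windows came from RefSeq on GRCm38.p6, while gene coordinates are those of the deposited tables. Python 3.11.15, pandas 2.3.3, numpy 2.4.6 and matplotlib 3.10.9 were used for sequences and figures.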

Additional observations from a re-analysis of the deposited data

Results flagged for a closer look

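In MutuDC the interaction test of edgeR called a dependence of the Vkine difference on LPS for 5 of the 10 genes, near the 49.2% of all genes it called. The difference with LPS minus that without was -3.17 for Trib3, -1.09 for Chac1, -0.90 for Ddit3 and -0.87 for Asns, and 0.37 for Atf4, on the log2 scale. The call of Atf4 ended in 11 of 21 alternatives and that of Chac1 in 4 of 21.

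Of the list genes that the same test called, 21 are given here, as values only. They were picked because they were called in opposite directions by Vkine without and with LPS, or because they are always named, so for the first kind the choice itself fixes the outcome. Among genes whose value was lower with LPS, Bcat1 had -2.63, Crebrf -1.77, Dnajb9 -1.52, Ppp1r15a -1.14, Cars -1.02, Eif2ak2 -0.75, Slc38a2 -0.72, Rragc -0.61, Kdm3a -0.55, Eif2ak4 -0.32 and Xbp1 -0.25. Among genes whose value was higher with LPS, Akt1s1 had 1.48, Batf3 1.27, Gcn1l1 1.07, Mlst8 1.05, Syvn1 1.05, Rptor 1.03, Vars 0.76, Hyou1 0.68, Mthfd1 0.65 and Eif4ebp2 0.62 (all log2, adjusted p of 0.0343 or less).

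Ddit4 was lower in every Vkine sample than in every EV sample of MutuDC without LPS (log2 -0.48) and higher in every Vkine sample of the CD45 set (0.81). Batf3 was also lower in all Vkine samples of MutuDC without LPS (-0.77) and higher in all Vkine samples of the CD45 set (0.66). With LPS in both arms, Batf3 was called higher in Vkine MutuDC (log2 0.50 ± 0.10 SE, adjusted p = 0.000681, edgeR). Both genes were picked because their samples lay apart in opposite directions, so the choice itself fixes that outcome. Neither difference between the sets was tested. The values of Ddit4 were not called in either set (adjusted p = 0.235 in MutuDC and 0.489 in CD45, edgeR), nor was that of Batf3 in CD45.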

How the results depend on the processing

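The 6 calls of Vkine against EV in MutuDC held in every alternative, with 6 to 7 genes called. For Vkine with LPS against Vkine, 5 to 8 genes were called, against 7 reported. For Vkine with LPS against EV with LPS the count of 5 became 3 with library totals only, 3 with no low-count filter, 2 with only these groups fitted and 3 to 4 with a sample left out. These counts hold calls in either direction. Trib3 entered them as lower without Vkine with LPS sample 2 (log2 -0.80), where Asns, Atf5 and Chac1 lost their calls. With FPKM at either pseudocount Trib3 entered as lower and Asns lost its call. Asns also lost its call with RLE scaling, upper-quartile scaling, DESeq2 and the replicate block. For EV with LPS against EV the count of 2 became 1 with upper-quartile scaling, with library totals only, with FPKM at either pseudocount and in the compared groups alone, and 0 to 3 with a sample left out. The interaction count of 5 ran from 3 to 6 with a sample left out. In CD45 the count of 0 became 1 with no low-count filter, where Sesn2 passed among 511 genes, and 1 with DESeq2, where 238 genes were called; it ran from 0 to 0 with a sample left out. The causes were not tested.

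Changes of sign were limited to values that had not been called. Chac1 in EV with LPS against EV became 0.0132 with upper-quartile scaling, 0.0156 with library totals only and 0.0676 with the replicate block. Phgdh in Vkine against EV became 0.0339 with library totals only, and 0.0286 and 0.029 with FPKM pseudocounts of 1 and 0.1. Atf4 in Vkine with LPS against Vkine became -0.0325 with library totals only and -0.0256 with FPKM at either pseudocount, and Atf4 in CD45 became -0.0012 with upper-quartile scaling and -0.1027 with library totals only. With a sample left out, EV with LPS against EV ran from -0.3221 to 0.2008 for Chac1, -0.2968 to 0.1563 for Ddit4 and -0.1532 to 0.0166 for Sesn2. Vkine with LPS against EV with LPS ran from -0.2073 to 0.0285 for Ddit3, -0.1757 to 0.2764 for Ddit4, -0.1417 to 0.0132 for Phgdh and -0.0406 to 0.0397 for Psat1. Phgdh ran from -0.1006 to 0.0244 in Vkine against EV, -0.0921 to 0.0632 in the interaction and -0.3152 to 0.2223 in CD45. Atf4 ran from -0.0061 to 0.148 in Vkine with LPS against Vkine and -0.1535 to 0.1175 in CD45.

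Same-numbered samples had correlations of -0.101 to 0.096 over 15 MutuDC pairs, with 4 of 11 samples closest to their own number. In CD45 the correlations were -0.049 and 0.036, with 0 of 6 closest to their own number. This check cannot decide whether the numbers mark pairs. CD45 held only 2 same-numbered pairs, because the EV library titled R1L1 and Vkine sample 3 had no partner of the same number. In MutuDC the EV samples gave mirrored values, for example 0.036 and -0.036 with EV with LPS sample 1. With the replicate block, 1 of the 10 genes was called in EV with LPS against EV, and the calls of Atf4 there (adjusted p = 0.0853) and in the interaction (0.0556), of Asns in Vkine with LPS against EV with LPS (0.0569) and of Sesn2 in Vkine with LPS against Vkine (0.0628) ended. Over all genes the block gave calls for 4130 in Vkine against EV, 5250 in Vkine with LPS against EV with LPS, 3919 in EV with LPS against EV, 6673 in Vkine with LPS against Vkine, 6142 in the interaction and 0 in CD45.

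Counts over all genes moved by more than 1.5 times in EV with LPS against EV (4649, against 3016 in the compared groups alone and 2736 and 2778 without EV sample 1 or 2) and in Vkine against EV (4707, against 2748 and 2906 without EV sample 1 or 2). In CD45 the count of 4 was 1 with library totals only, 0 with FPKM, with no robust step and with the block, and 0 to 28 with a sample left out, 28 of them without the first Vkine sample. Library totals only moved the median of all genes by -0.1222 in Vkine with LPS against Vkine, -0.1594 in the interaction and -0.1175 in CD45. The EV arm of MutuDC held only 2 libraries, and Trib3, Chac1 and Ddit4 had under 70 counts in most MutuDC libraries, which limits the precision of their values.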

Other observations

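The remaining counts of pathway list genes in MutuDC, by edgeR at an adjusted p under 0.05, were as follows. In EV with LPS against EV, the XBP1 and ATF6 chaperone list had 6 genes higher and 2 lower of 23, synthetases with Xpot 3 and 0 of 21, C/EBP and ATF partners 3 and 2 of 11, sensors 2 and 2 of 19, mTORC1 components 2 and 5 of 20 and hypoxia genes 0 and 2 of 12, beside 17.2% of all genes higher and 17.6% lower. In Vkine with LPS against Vkine, the chaperone list had 9 higher and 6 lower of 23, sensors 6 and 4 of 19, mTORC1 components 6 and 3 of 20, partners 4 and 3 of 11, synthetases with Xpot 4 and 6 of 21, stress targets 4 and 4 of 15 and hypoxia genes 2 and 4 of 12, beside 27.6% of all genes higher and 24.3% lower. Herpud1, part of endoplasmic reticulum degradation, was higher there by 0.73 ± 0.06, while Dnajb9 was lower at -0.73 ± 0.09 (log2, SE).

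In the interaction, which called 25.5% of all genes higher and 23.7% lower, synthesis enzymes had 4 higher and 7 lower of 20, synthetases with Xpot 3 and 6 of 21, mTORC1 components 8 and 3 of 20, hypoxia genes 5 and 3 of 12, and the chaperone list 9 and 9 of 23. Sensors had 3 higher and 4 lower of 19, partners 4 and 4 of 11, transporters 4 and 4 of 12 and stress targets 3 and 3 of 15.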
